A study of Danio rerio with 9 samples.

Results

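The genes described here are 10 heat shock chaperones and co-chaperones of zebrafish, taken by name from the 30649 named rows of the count tables: hsp70l, hspa8, hsp90aa1.1, hsp90aa1.2, hsp90ab1, hspb1, hspb8, dnajb1a, dnajb1b and bag3. All 10 had enough reads in the tumours to be tested, among 15169 genes tested in all. They were measured in 9 melanomas, 5 from embryos injected with the MiniCoopR vector carrying CDK13 R860Q (tumours R157 to R161) and 4 from embryos injected with the same vector carrying EGFP (tumours R162 to R165). All fish, the EGFP controls included, were p53-/-, carried mitfa:BRAFV600E and were Na-/-. MiniCoopR restores mitfa together with the added gene, so the model rests on pigment cells that express BRAF V600E from the mitfa promoter. With no group given wild-type CDK13, what the amino acid change does and what an added human kinase does cannot be told apart. Neither the ages of the fish nor whether each tumour came from its own animal is stated in the labels. The p-values therefore measure the spread between these 9 libraries, which may be technical.

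Molecular chaperones keep proteins folded. HSP70 proteins bind exposed stretches of unfolded clients in a cycle of ATP hydrolysis that J-domain proteins such as DNAJB1 start and nucleotide exchange factors such as BAG3 end. HSP90 proteins take over clients near the end of folding, many kinases among them, mutant BRAF included, and small heat shock proteins hold unfolded proteins without using ATP. Some of these genes are transcribed at all times, whereas others are switched on by the transcription factor HSF1 when unfolded protein builds up.

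The gene carried by the vector, human CDK13, was counted separately, with 114 to 7239 reads per R860Q tumour and 0 to 5 per EGFP tumour, which fits the labels. Total counts ran from 7252950 to 11150732 in R860Q tumours and from 5518472 to 15120176 in EGFP tumours. Of 16 melanocyte markers 14 were tested, and pmela, a protein of the melanosome matrix, was at 635.6 to 5686 CPM in R860Q tumours and at 1590 to 3426 CPM in EGFP tumours, so pigment cell RNA was present in every library. CPM are read counts relative to library size, after scaling of the libraries by TMM. EGFP R162 and EGFP R164 stood apart on the first principal component (-102.1 and -57.2, against -7.56 to 48.9 in the other tumours). R860Q R158, R159 and R160 and EGFP R162 held more skeletal muscle RNA than the others, and values with and without them are given below. In whole tumours, fewer cells of a type and less RNA per cell cannot be told apart.

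By edgeR's quasi-likelihood test, 0 of the 10 members and 0 of the 15169 genes (0% called) differed between R860Q and EGFP tumours at an adjusted p under 0.05. DESeq2 called 68 of all genes and 0 of the 9 members to which it gave an adjusted p. On the higher side in R860Q tumours were 8 of the members and 47.2% of all genes, and the members' median log2 fold change was 0.45, beside -0.026 over all genes. At an unadjusted p under 0.05 there was 1 member, hspb1, where the background was 6.14% of all genes in either direction and 1.99% in the higher direction. Between 1 and 3 members, hspb1 always among them, had an unadjusted p under 0.05 under the alternatives run. DESeq2 gave 3, beside 1131 of 15169 genes. edgeR gave 3 without R860Q R158 (beside 621 of 14808 genes), R860Q R161 (1077 of 15149) or EGFP R165 (759 of 15363). The share of all genes ran from 608 of 16747 in the 5 tumours with little muscle RNA to 1521 of 15560 without EGFP R163. The count on the higher side was between 6 and 9 under every alternative run, and the median between 0.17 and 0.63. The lowest of both came from the 5 tumours with little muscle RNA.

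**Figure D1:**
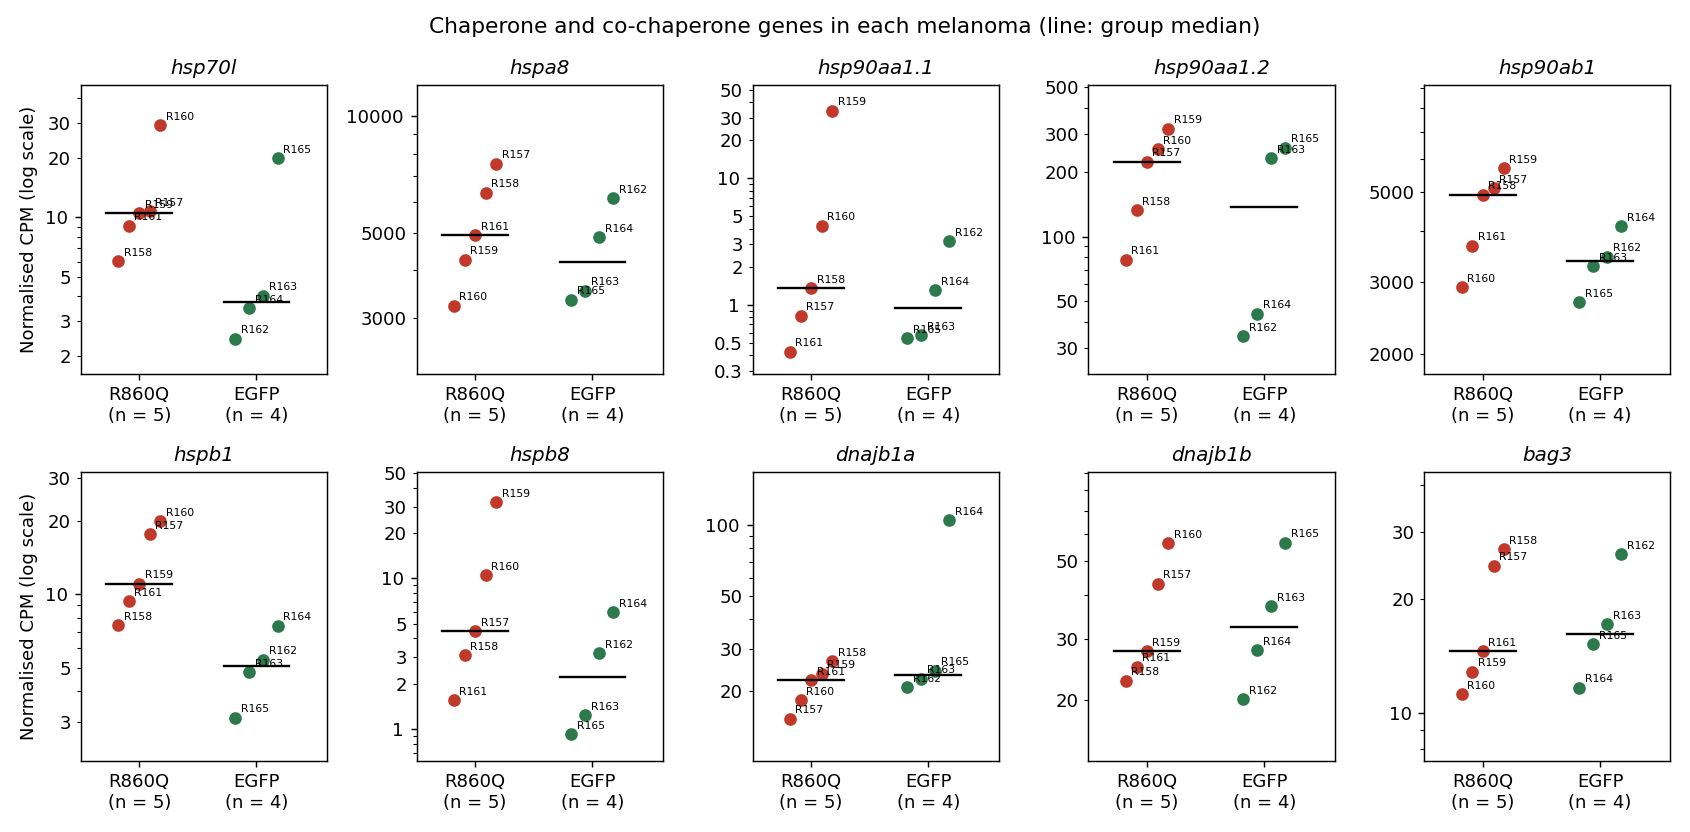
Normalised CPM (log scale, 1 panel per gene) of the 10 chaperone genes in each of the 5 R860Q and 4 EGFP tumours, with a line at the group median. The groups overlap in 9 panels, touch in that of hspb1 (and overlap there under upper-quartile scaling), and single tumours stand out in those of hsp90aa1.1 and hspb8 (R159) and of dnajb1a (R164).

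Among the HSP70 genes, the constitutive hspa8 was abundant in every tumour and the inducible hsp70l was low and variable. hspa8 codes for Hsc70, the HSP70 that cells make without stress and use for the folding of new proteins. It was at 7541, 6344, 4250, 3228 and 4929 CPM in R860Q tumours R157 to R161, against 6141, 3537, 4862 and 3347 CPM in EGFP tumours R162 to R165. The groups overlapped: R860Q R157 and R158 were above every EGFP tumour, R160 was below them all, and R159 and R161 were within the EGFP range. The highest tumour, R860Q R157, was 2.34 times the lowest, R860Q R160. Its log2 fold change was 0.23 ± 0.41 (SE, edgeR adjusted p = 0.979), between 0.066 (without R860Q R157) and 0.42 (without EGFP R162) with a single tumour left out, and 0.68 ± 0.42 in the 5 tumours with little muscle RNA. This single row took between 0.306% and 0.907% of all counts in R860Q tumours and between 0.383% and 0.605% in EGFP tumours. These shares are not scaled by TMM and rank the tumours otherwise than the CPM do. EGFP R162 (6141 CPM, TMM factor 0.650) held 0.397% and EGFP R165 (3347 CPM, TMM factor 1.22) held 0.405%. The spread in CPM between these EGFP tumours thus rests on the scaling.

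The row hsp70l is the HSP70 gene known in zebrafish for its strong induction by heat. It had 10.7, 6.01, 10.5, 29.1 and 9.10 CPM in R860Q tumours R157 to R161, against 2.45, 4.04, 3.49 and 20.0 CPM in EGFP tumours R162 to R165. All R860Q tumours were above 3 of the EGFP tumours, and EGFP R165 was above all R860Q tumours but R160. It averaged 13.1 ± 9.14 CPM over the 5 R860Q tumours and 7.48 ± 8.34 CPM over the 4 EGFP tumours (SD), a log2 fold change of 0.77 ± 0.67 (SE, edgeR adjusted p = 0.941). Single tumours set its size: it was 1.95 ± 0.54 without EGFP R165 (edgeR adjusted p = 0.968), 0.25 ± 0.63 without R860Q R160 and 0.12 ± 0.72 without EGFP R162 and R164. In the 5 tumours with little muscle RNA it was 0.11 ± 0.80.

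Further inducible HSP70 genes are hsp70.1, hsp70.2 and hsp70.3. Their coding sequences are close to that of hsp70l, so that reads may be split among the 4 rows in an uncertain way. Summed over the 4 rows, the level was 44.8, 38.5, 58.0, 89.4 and 30.4 CPM in R860Q tumours R157 to R161, against 8.80, 23.2, 18.8 and 59.3 CPM in EGFP tumours R162 to R165. The order was that of hsp70l in outline, with EGFP R165 again among the R860Q tumours. Counting the 4 rows as a single gene was tried only after the data had been seen, and the log2 fold change was then 0.91 ± 0.51 (SE, edgeR adjusted p = 0.895). Taken singly, hsp70.3 stood at 0.97 ± 0.51, hsp70.2 at 0.94 ± 0.50 and hsp70.1 at 0.74 ± 0.49.

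The cytosolic HSP90 genes differed more in their spread than between the groups. hsp90ab1, the constitutive HSP90 beta, was at 5092, 4915, 5711, 2913 and 3686 CPM in R860Q tumours R157 to R161, against 3465, 3284, 4119 and 2681 CPM in EGFP tumours R162 to R165. By CPM, R860Q R157, R158 and R159 were above every EGFP tumour, and R160 and R161 lay within the EGFP range. As shares of all counts, not scaled by TMM, only R157 (0.612%) was above every EGFP tumour. EGFP R164 held 0.513%, against 0.492% in each of R860Q R158 and R159. For hsp90ab1 the log2 fold change was 0.40 ± 0.37 (SE, edgeR adjusted p = 0.941), and under every alternative run it was between 0.29 and 0.58.

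hsp90aa1.2, an HSP90 alpha that responds to stress in zebrafish, varied far more. It had 223.6, 132.4, 319.4, 255.5 and 77.9 CPM in R860Q tumours R157 to R161, against 34.2, 231.9, 43.7 and 259.8 CPM in EGFP tumours R162 to R165. The EGFP tumours lay at both ends, with R162 and R164 below every R860Q tumour and R163 and R165 among the highest. R860Q over EGFP, it stood at a log2 fold change of 0.50 ± 0.65 (SE, edgeR adjusted p = 0.962) and its direction turned without EGFP R162 and R164 (-0.29 ± 0.49), the libraries apart on the first principal component, and in the 5 tumours with little muscle RNA (-0.23 ± 0.81). It was 1.26 ± 0.63 by voom, 0.96 without EGFP R165 and 0.84 without EGFP R163, against 0.18 without EGFP R162, 0.20 without EGFP R164 and 0.28 without R860Q R159.

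Its neighbour hsp90aa1.1, the HSP90 alpha that zebrafish muscle needs to fold myosin, was close to the limit of counting outside a few tumours. It had 0.820, 1.35, 34.2, 4.22 and 0.426 CPM in R860Q tumours R157 to R161, against 3.18, 0.577, 1.31 and 0.547 CPM in EGFP tumours R162 to R165. The reads behind these values were 11, 13, 235, 29 and 3 in the R860Q tumours and 13, 7, 9 and 10 in the EGFP tumours. R860Q R159 was above every other tumour by far, and the remaining R860Q tumours were spread around the EGFP tumours. The log2 fold change was 2.66 ± 1.31 (SE, edgeR adjusted p = 0.836), and without R860Q R159 it was 0.38 ± 0.82 (edgeR adjusted p = 0.998). By voom with sample weights in limma it was 0.996 ± 1.21. With hsp90aa1.1 and hsp90aa1.2 counted as a single gene, the log2 fold change was 0.54 ± 0.65 (edgeR adjusted p = 0.952).

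The small heat shock gene hspb1 was the member with the smallest p-value, and it was higher in R860Q tumours in every fit run without passing in any. It codes for HSP27, which holds unfolded proteins and binds actin filaments. hspb1 had 17.7, 7.47, 11.1, 19.9 and 9.38 CPM in R860Q tumours R157 to R161, against 5.38, 4.78, 7.42 and 3.12 CPM in EGFP tumours R162 to R165. The groups touched without overlapping, the lowest R860Q tumour being R158 (7.47 CPM from 72 reads) and the highest EGFP tumour R164 (7.42 CPM from 51 reads). The exact Poisson 95% intervals of these tumours, which cover counting error only, ran from 5.84 to 9.40 CPM and from 5.53 to 9.76 CPM, and under upper-quartile scaling the groups overlapped (7.38 CPM in R860Q R158, 7.49 CPM in EGFP R164). As shares of all counts, not scaled by TMM, R860Q R158 (0.000748%) and R161 (0.000871%) were both below EGFP R164 (0.000924%). By TMM-scaled CPM, R860Q tumours lay entirely above EGFP tumours in 0.626% of all genes.

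hspb1 averaged 13.1 ± 5.41 CPM over the 5 R860Q tumours and 5.17 ± 1.78 CPM over the 4 EGFP tumours (SD). Its log2 fold change was 1.35 ± 0.38 (SE), with an unadjusted edgeR p of 0.00492, the 105th smallest of 15169, and an adjusted p of 0.680. By DESeq2 the adjusted p was 0.117. Across all 19 alternatives the log2 fold change was between 1.15 and 1.73, and the adjusted p between 0.117 and 0.9998.

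**Figure D2:**
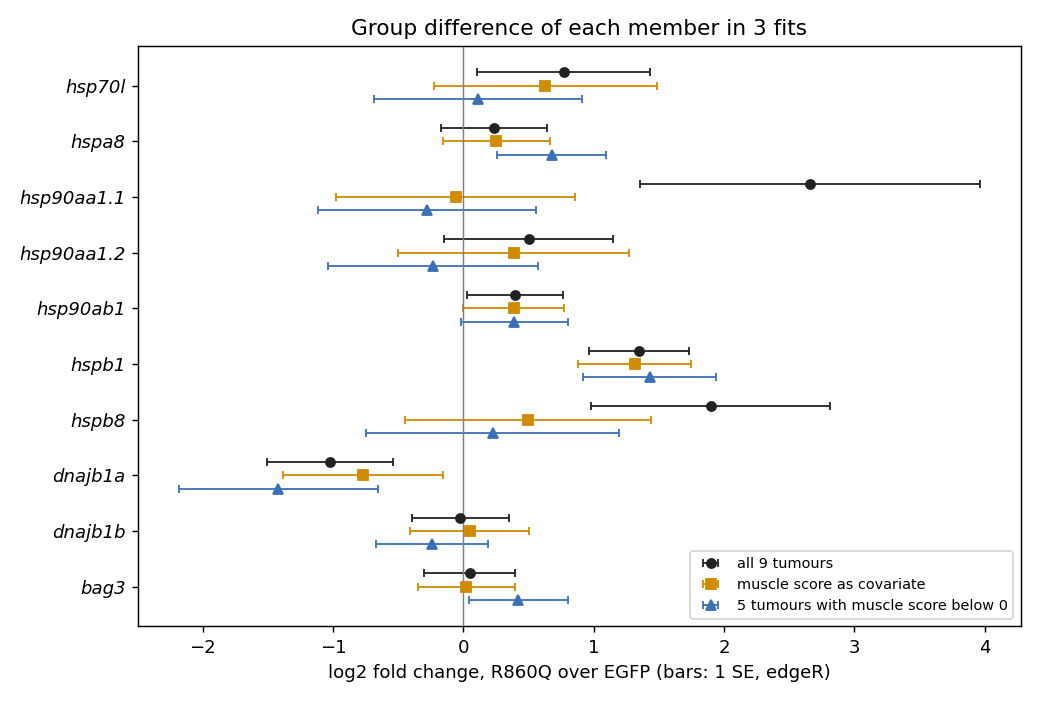
Log2 fold change of each member, R860Q over EGFP, by edgeR, with bars of 1 SE, in all 9 tumours (black circles), with the muscle score added as a covariate (orange squares) and in the 5 tumours with a muscle score below 0 (blue triangles). hspb1 is between 1.32 and 1.43 in the 3 fits. hsp90aa1.1 and hspb8 are between -0.28 and 0.50 with the covariate and in the 5 tumours. The cause of these shifts was not tested.

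The other small heat shock gene among the members, hspb8, works with bag3 to hand damaged proteins to autophagy and is abundant in muscle. It had 4.47, 3.11, 31.9, 10.5 and 1.56 CPM in R860Q tumours R157 to R161, against 3.18, 1.24, 5.97 and 0.929 CPM in EGFP tumours R162 to R165. R860Q R159 and R160 were above every EGFP tumour and the other R860Q tumours were within the EGFP range. Its log2 fold change was 1.90 ± 0.92 (SE, edgeR adjusted p = 0.8289), 0.83 ± 0.73 without R860Q R159 (edgeR adjusted p = 0.998) and 2.61 ± 1.03 without EGFP R164 (edgeR adjusted p = 0.950).

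The co-chaperones were split. The J-domain genes dnajb1a and dnajb1b are a pair of zebrafish counterparts of DNAJB1, the partner that starts the HSP70 cycle. dnajb1a had 15.3, 26.6, 23.6, 18.3 and 22.2 CPM in R860Q tumours R157 to R161, against 20.8, 22.5, 104.5 and 24.4 CPM in EGFP tumours R162 to R165. The other 8 tumours lay between 15.3 and 26.6 CPM, and EGFP R164, from 718 reads, was several times above them. The log2 fold change was -1.02 ± 0.48 (SE, edgeR adjusted p = 0.818) and -0.092 ± 0.26 without EGFP R164.

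dnajb1b had 43.2, 22.7, 27.5, 56.3 and 24.9 CPM in R860Q tumours R157 to R161, against 20.1, 37.2, 27.8 and 56.6 CPM in EGFP tumours R162 to R165. The groups covered almost the same range, and EGFP R164 was in its lower part. Its log2 fold change was -0.024 ± 0.37 (SE, edgeR adjusted p = 0.998). In GRCz12tu, a later assembly than that of the counts, dnajb1b overlaps the gene adgre10, an adhesion G protein-coupled receptor, so that reads in the shared stretch may not be separated. adgre10 had 8.65, 4.56, 4.52, 10.03 and 3.98 CPM in R860Q tumours R157 to R161, against 4.89, 6.68, 7.13 and 11.6 CPM in EGFP tumours R162 to R165, and its 3 highest tumours were those of dnajb1b.

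bag3, the nucleotide exchange factor, had 24.5, 27.1, 12.8, 11.2 and 14.5 CPM in R860Q tumours R157 to R161, against 26.2, 17.1, 11.6 and 15.1 CPM in EGFP tumours R162 to R165. Both groups covered nearly the same range, with means of 18.01 ± 7.23 CPM over the 5 R860Q tumours and 17.5 ± 6.20 CPM over the 4 EGFP tumours (SD). The log2 fold change was 0.048 ± 0.35 (SE, edgeR adjusted p = 0.997), and its sign turned without R860Q R157 (-0.090), R860Q R158 (-0.14), EGFP R164 (-0.10) or EGFP R165 (-0.017).

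The members fell into genes with a wide and genes with a usual spread between tumours. edgeR's biological coefficient of variation estimates the relative spread between tumours of a group beyond counting error. Each gene's value is drawn towards the trend over all genes. It was 1.12 for hsp90aa1.1, 0.855 for hspb8, 0.685 for hsp70l and 0.669 for hsp90aa1.2. Only 2.18%, 5.60%, 12.7% and 13.8% of all genes had a higher one, with no matching for abundance. The coefficients of hsp90aa1.1 and hspb8 include a single high tumour, R860Q R159. It was at 34.2 and 31.9 CPM, against at most 4.22 and 10.5 CPM in the others. The coefficient of dnajb1a was 0.527, a value that likewise includes a single high tumour, EGFP R164. It was between 0.375 and 0.428 for hsp90ab1, bag3, hspa8, hspb1 and dnajb1b, all below the median of 0.429 over all genes.

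Skeletal muscle RNA ran beside part of these results. The muscle score, the mean over 28 tested marker genes of the centred log2 CPM, was -1.73, 1.66, 3.91, 3.54 and -2.53 in R860Q tumours R157 to R161, against 2.51, -2.33, -2.82 and -2.21 in EGFP tumours R162 to R165. Its group means were 0.97 and -1.21, a difference of 2.18 (exact permutation test, two-sided, p = 0.294). The tumours formed 2 separate clusters by this score, R158, R159, R160 and R162 above 0 and the others below, so no correlation across them is given. The 28 markers summed to 130.6 to 5189 CPM in R860Q tumours and to 118.3 to 1504 CPM in EGFP tumours, and for 26 of them the log2 fold change was above 0. Desmin, desma, a filament of muscle fibres, was counted 9, 117, 1166, 189 and 1 times in R860Q tumours R157 to R161, against 60, 2, 1 and 2 times in EGFP tumours R162 to R165. Of the 28 markers, 11 were at 0 in at least 1 tumour. The part of muscle RNA in the group difference of the members was not tested beyond the fits given here.

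hsp90aa1.1 was highest in R159, R160 and R162, the tumours with the 3 highest muscle scores. R158 (1.35 CPM from 13 reads) came next, nearly level with EGFP R164 (1.31 CPM from 9 reads), whose muscle score was the lowest. hspb8 was highest in R159 and R160, but EGFP R164, with the lowest muscle score, came next. With the muscle score as a covariate in the edgeR fit, the log2 fold change of hsp90aa1.1 was -0.058 ± 0.92 (SE) and that of hspb8 0.50 ± 0.94, while that of hspb1 was 1.32 ± 0.43 (edgeR adjusted p = 0.999 for each). In the 5 tumours with scores below 0, R157 and R161 against R163 to R165, they were -0.28 ± 0.84, 0.22 ± 0.97 and 1.43 ± 0.51 (edgeR adjusted p = 0.9998 for each). hspb1 was at 17.7 and 9.38 CPM in these R860Q tumours, against 4.78, 7.42 and 3.12 CPM in these EGFP tumours.

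**Figure D3:**
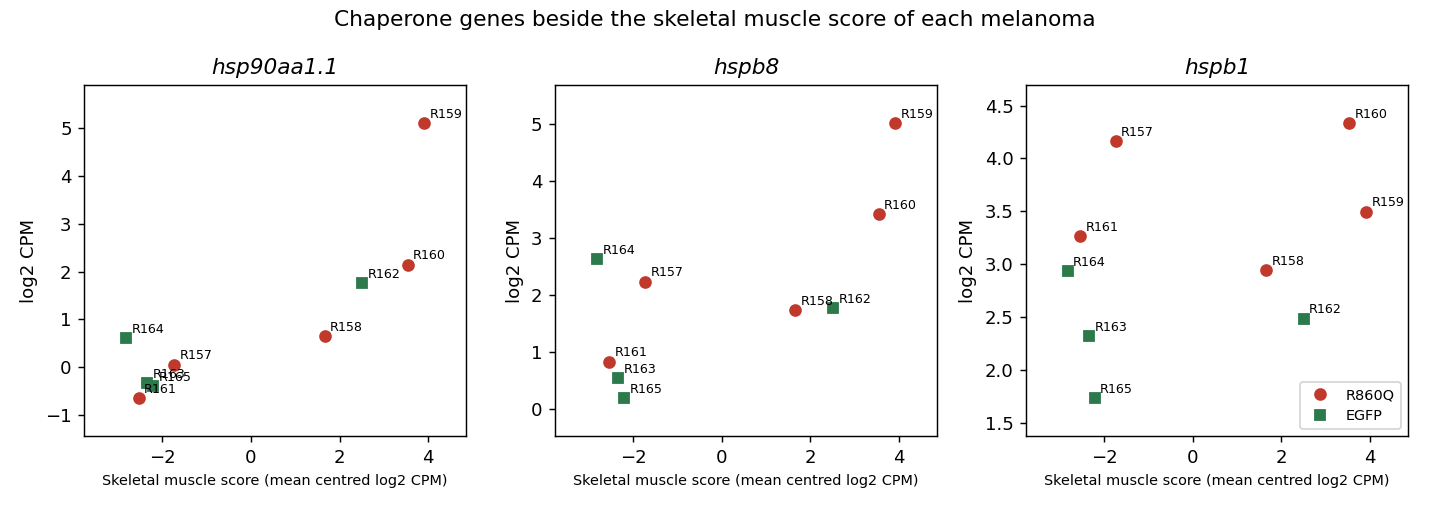
Log2 CPM of hsp90aa1.1, hspb8 and hspb1 (vertical axes) against the skeletal muscle score (horizontal axis, mean centred log2 CPM of 28 markers), 1 point per tumour, R860Q as red circles and EGFP as green squares. hsp90aa1.1 is high in R159, R160 and R162, on the right, while hspb1 is higher in R860Q tumours on both sides of 0. On the right, R162 is the only EGFP tumour.

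Other chaperones with a known place in muscle were listed alongside. All 3 myosin chaperones were on the higher side, by a median log2 fold change of 1.17: the myosin chaperone unc45b at 0.47 ± 0.96 (SE), and the methyltransferases smyd1a at 1.17 ± 0.79 and smyd1b at 1.94 ± 1.13. unc45b did not follow hsp90aa1.1, with its highest value, 17.5 CPM, in R860Q R161, a tumour with little muscle RNA. Of 10 further small heat shock genes 2 had enough reads to be tested: hspb11 at 2.65 ± 1.52, with 84.7 CPM in R860Q R159 and at most 16.0 CPM elsewhere, and the crystallin cryabb at 0.32 ± 1.22, with 27.8 CPM in EGFP R163 and 25.4 CPM in R860Q R159. No gene of these lists passed edgeR's test (adjusted p of 0.899 or more).

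Variation of the members with hsp70l between tumours was examined next, since HSF1 targets are known to be induced together. Across the 9 tumours the log2 CPM of dnajb1b (Pearson r = 0.77, exact permutation p = 0.0179, Spearman rho = 0.73, p = 0.0311) and of hsp90aa1.2 (r = 0.72, exact permutation p = 0.0330, rho = 0.75, p = 0.0255) went with that of hsp70l. Adjusted over the 9 relations both Pearson p-values were 0.148 and both Spearman p-values 0.140, so neither passed over all 9 tumours. Of all genes, 0.514% and 1.14% had a higher r with hsp70l. Without EGFP R162 and R860Q R160, the tumours farthest from the median of hsp70l, r was 0.54 for dnajb1b (exact permutation p = 0.209) and 0.56 for hsp90aa1.2 (exact permutation p = 0.191), a choice that also narrows the range of hsp70l. With a single tumour left out, r was between 0.67 and 0.86 for dnajb1b and between 0.58 and 0.86 for hsp90aa1.2. EGFP R162 and R164, apart on the first principal component, were lowest in both hsp70l and hsp90aa1.2. For hsp90aa1.2, r was 0.58 without R162 (exact permutation p = 0.127) and 0.66 without R164 (exact permutation p = 0.0777). With the group means subtracted and the values permuted over all 9 tumours, r was 0.89 for dnajb1b (permutation p = 0.000405, adjusted p = 0.00365). It was 0.66 for hsp90aa1.2 (permutation p = 0.0526, adjusted p = 0.118). Centred values are not freely exchangeable between groups, so these p-values are approximate and may be too small. Only on that footing did dnajb1b pass. EGFP R165 and R860Q R160 were highest in both hsp70l and dnajb1b, and the centred r was not computed with tumours left out. The dnajb1b row may also hold reads of adgre10, as described above.

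For the other 7 members no relation with hsp70l passed across the 9 tumours. Pearson r was 0.40 for hspb1, 0.18 for hspb8, 0.11 for hsp90aa1.1, -0.24 for hsp90ab1, -0.42 for dnajb1a, -0.43 for bag3 and -0.46 for hspa8, with exact permutation p between 0.207 and 0.794 and Spearman rho between -0.42 and 0.48 (exact permutation p of 0.194 or more). Their adjusted Pearson p was between 0.451 and 0.794. Without EGFP R162 and R860Q R160, r was between -0.58 for dnajb1a and 0.085 for hsp90aa1.1. hspb1 was a case of its own: without EGFP R165, where hsp70l was high and hspb1 lowest, r was 0.90 (exact permutation p = 0.00119, unadjusted). With any other single tumour left out it was between 0.10 and 0.41. With the group means subtracted it was 0.0080, and without EGFP R162 and R860Q R160 together -0.044. The permutation p was 0.313 or more in all of these. After the group means were subtracted, r with hsp70l was -0.71 for hspa8 (permutation p = 0.0262) and -0.68 for hsp90ab1 (permutation p = 0.0429). Adjusted over the 9 relations, neither of these relations passed (adjusted permutation p = 0.118 for both). As above, p-values from centred values are approximate and may be too small. All these values share the libraries and their scaling.

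**Figure D4:**
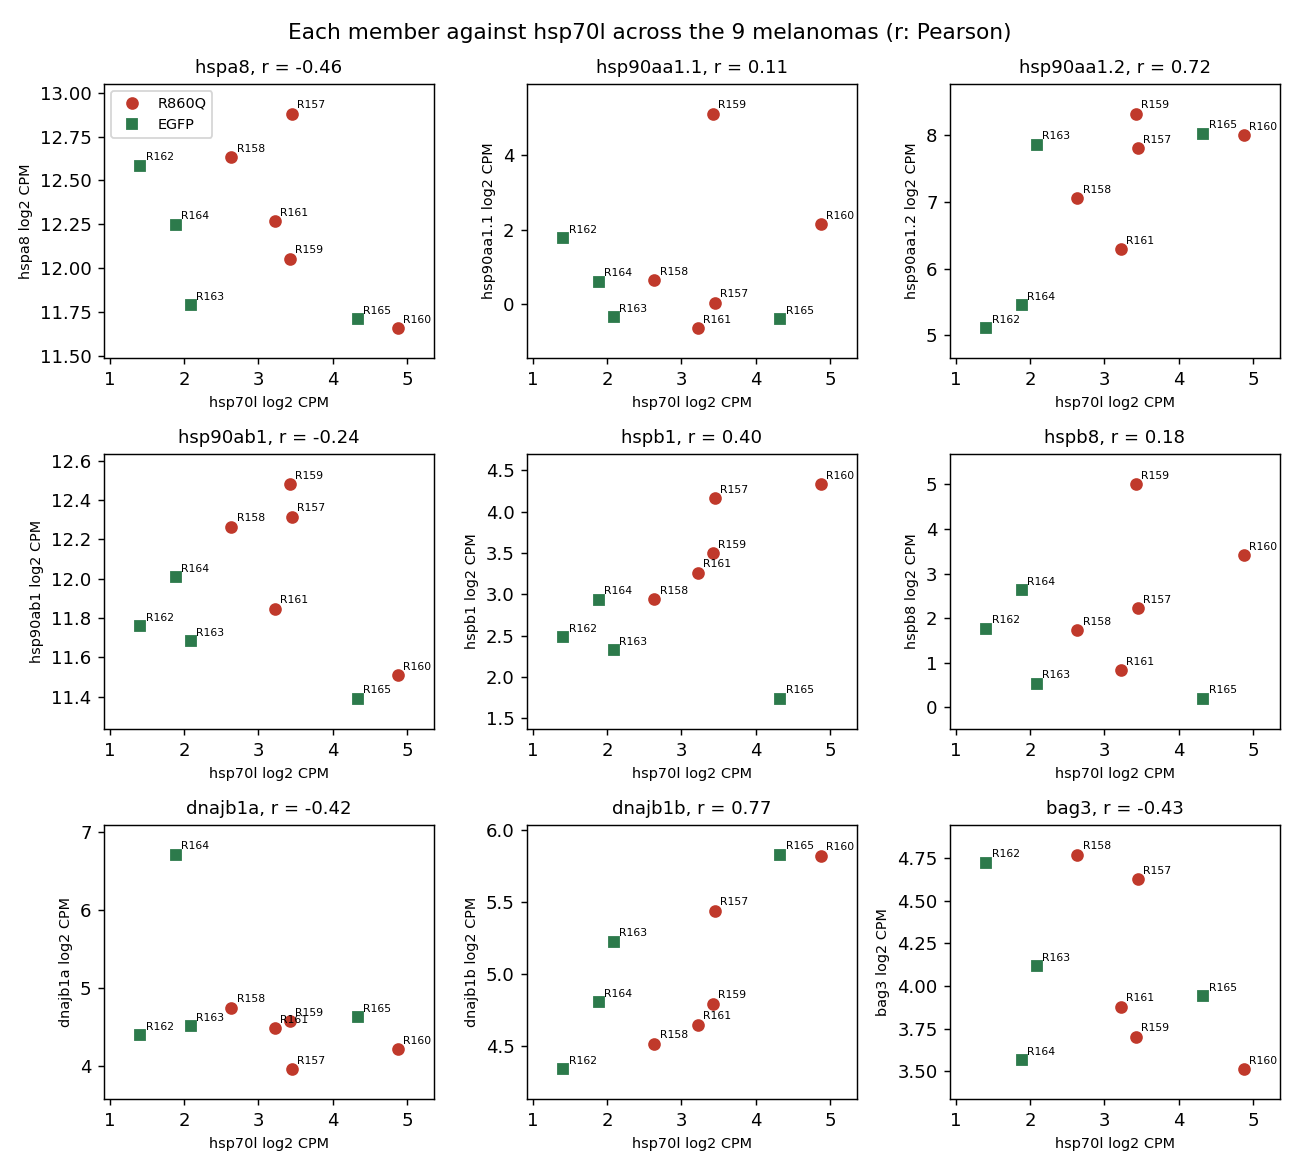
Log2 CPM of the 9 other members (vertical axes) against log2 CPM of hsp70l (horizontal axes), 1 point per tumour, R860Q as red circles and EGFP as green squares, with Pearson's r over the 9 tumours in each title. dnajb1b (r = 0.77) and hsp90aa1.2 (r = 0.72) follow hsp70l most closely, and dnajb1a is flat apart from EGFP R164.

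Among the other tested genes with a gene symbol, 12363 in all, the 5 most like hsp70l by Pearson's r over the 9 tumours were its close copy hsp70.2 (0.93), the transcription inhibitor id3 (0.92), ext2, an enzyme of heparan sulfate synthesis (0.90), tmem88a (0.90) and she (0.89). Those most like hspb1 were mier3b (0.93), the glycolytic enzyme pgk1 (0.89), arid4a (0.88), the DNA ligase lig1 (0.87) and the secreted peptide apln (0.87). These were the highest of many values and are given as a description.

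Ratios between members of a library were compared for 6 pairs. A ratio of raw counts does not depend on the scaling between libraries. The ratios here were taken from log2 CPM with a prior count of 2. That leaves some dependence on scaling and shrinks ratios that hold a gene with few reads. With a prior count of 0.5 the group difference for hsp90aa1.1 over hsp90ab1 was 0.73, against 0.68. The log2 ratio of inducible to constitutive HSP70, hsp70l over hspa8, was -9.43, -9.99, -8.63, -6.78 and -9.05 in R860Q tumours R157 to R161, against -11.2, -9.70, -10.4 and -7.38 in EGFP tumours R162 to R165. It was highest in R860Q R160 and EGFP R165, and the groups overlapped. It averaged -8.78 ± 1.22 over the 5 R860Q tumours and -9.65 ± 1.63 over the 4 EGFP tumours (SD; exact permutation test, two-sided, p = 0.365, or 0.762 adjusted over the 6 ratios).

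For stress-responsive over constitutive HSP90, hsp90aa1.2 over hsp90ab1, the log2 ratio averaged -4.59 ± 0.82 in R860Q tumours and -5.10 ± 1.75 in EGFP tumours (SD, n = 5 and 4, exact permutation p = 0.579). EGFP R162 (-6.65) and R164 (-6.55) were below every other tumour, and EGFP R165 (-3.37) was above them all. The ratio of dnajb1a over dnajb1b averaged -0.65 ± 0.84 in R860Q tumours and 0.0068 ± 1.37 in EGFP tumours (SD, exact permutation p = 0.437), with EGFP R164 at 1.90 and the other 8 tumours between -1.61 and 0.23. In that tumour dnajb1a was at its highest and dnajb1b below its EGFP mean.

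The ratio of bag3 over hspb8, the partners in autophagy, averaged 1.46 ± 1.96 in R860Q tumours and 2.81 ± 1.29 in EGFP tumours (SD, n = 5 and 4, exact permutation p = 0.278). It was -1.30 in R860Q R159 and 0.095 in R860Q R160, the tumours with the highest muscle scores, and 0.94 in EGFP R164, while the other 6 tumours were between 2.40 and 3.75. The ratios of hspb1 over hspb8 (0.996 ± 1.52 and 1.09 ± 0.69, exact permutation p = 0.952) and of hsp90aa1.1 over hsp90ab1 (-10.6 ± 2.201 and -11.3 ± 0.91, exact permutation p = 0.635) overlapped between R860Q and EGFP tumours as well. Adjusted over the 6 ratios, p was 0.762 or higher for each.

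**Figure D5:**
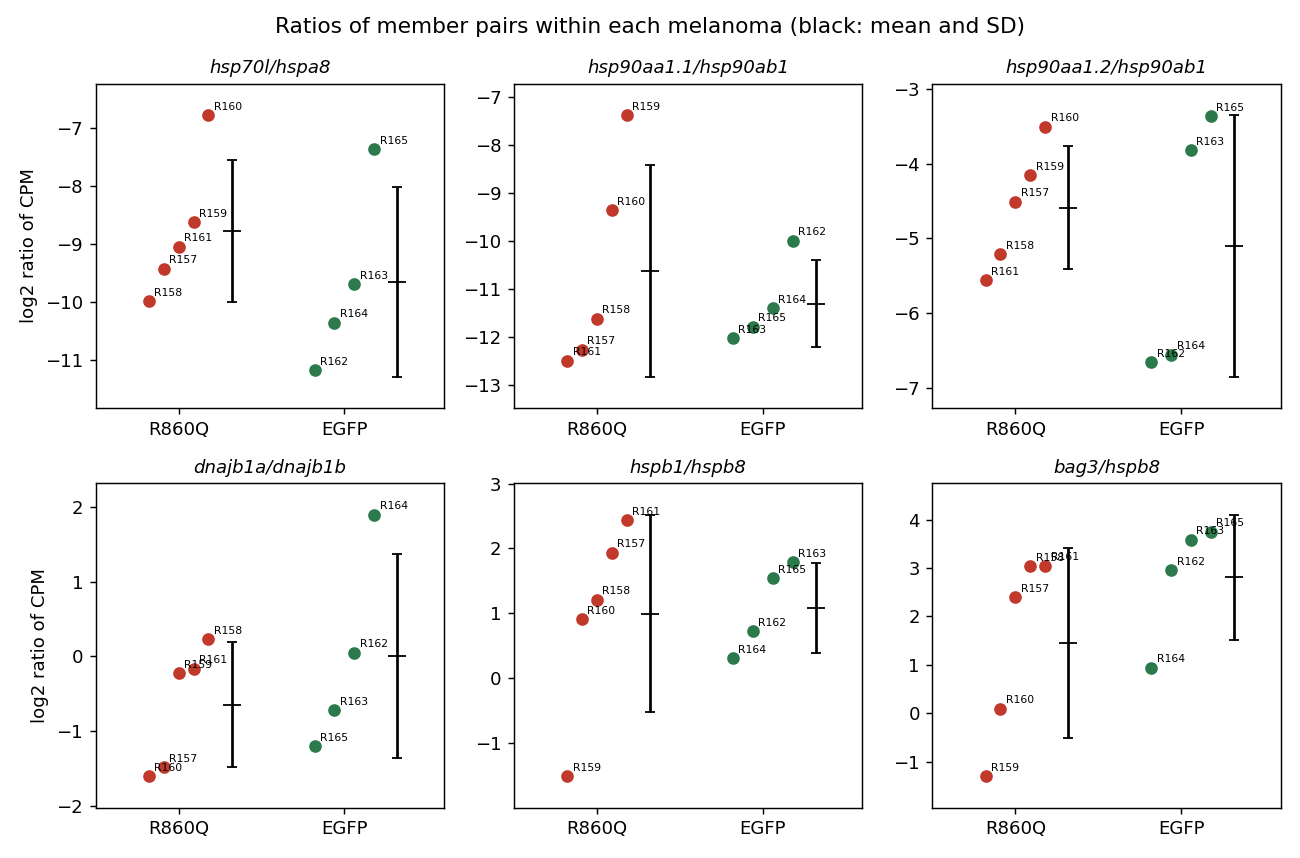
Log2 ratio of CPM (prior count 2) of 6 pairs of members within each tumour (points). Black marks the mean and SD of the 5 R860Q and the 4 EGFP tumours. The groups overlap in every panel, and EGFP R164 stands out for dnajb1a over dnajb1b and R860Q R159 for the ratios that hold hsp90aa1.1 or hspb8.

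In the other chaperone lists the median log2 fold change was between -0.12 and 0.17, apart from the small heat shock (1.48) and myosin chaperone (1.17) lists. Of 4 tested regulators of the heat shock response 2 were higher in R860Q tumours and 2 lower, with the factor hsf1 at 17.5 ± 4.98 CPM in R860Q tumours and 21.6 ± 3.45 CPM in EGFP tumours (SD, n = 5 and 4), which is -0.30 ± 0.27 in log2 fold change (SE). Its relative hsf2 stood at 0.30 ± 0.28 and the HSF-binding protein gene hsbp1b at 0.10 ± 0.39. Of 8 other HSP70 and HSP110 genes 6 were on the higher side (median log2 fold change 0.17), the 3 described above leading. None of these passed edgeR's test (adjusted p of 0.869 or more).

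Of 15 further J-domain genes 6 were higher in R860Q tumours and 9 lower, with a median log2 fold change of -0.10. The lowest p belonged to dnajb12b, which codes for a J-domain protein of the endoplasmic reticulum membrane, at 0.89 ± 0.37 (SE, edgeR adjusted p = 0.795), followed by dnajc2 (0.50 ± 0.35) and dnaja3a (0.35 ± 0.29). Of 6 other HSP70 co-chaperones 2 were on the higher side (median -0.07), with the HSP70-interacting st13 at 0.75 ± 0.45 and the bag3 relatives bag5 at -0.18 ± 0.24 and bag1 at -0.15 ± 0.30. Of 14 HSP90 co-chaperones 8 were on the higher side (median 0.06), with the immunophilins fkbp4 at 0.44 ± 0.47 and fkbp5 at 0.25 ± 0.33. The HSP90 activator gene ahsa1a, at 3.97 CPM in R860Q and 2.64 CPM in EGFP tumours, stood at 0.58 ± 0.63. Its other copy, ahsa1b, was more abundant (30.5 and 28.8 CPM) and stood at 0.08 ± 0.29. No gene of these lists passed edgeR's test.

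Of 10 chaperonin genes, whose products fold proteins inside a barrel, 7 were on the higher side (median log2 fold change 0.16). The subunit cct2 was at 10.8 ± 3.26 CPM in R860Q tumours and 5.68 ± 2.34 CPM in EGFP tumours (SD, n = 5 and 4; 0.91 ± 0.36 SE, edgeR adjusted p = 0.759), and tcp1 (0.42 ± 0.34) and cct6a (0.21 ± 0.27) came next. Of 21 chaperones of the endoplasmic reticulum and mitochondria 8 were higher in R860Q tumours and 13 lower, with a median of -0.12. There hspa13, an HSP70 relative of the reticulum, was at 11.3 ± 3.50 CPM in R860Q tumours and 22.0 ± 10.6 CPM in EGFP tumours (-0.96 ± 0.36, edgeR adjusted p = 0.759). The lectin chaperone canx stood at 0.60 ± 0.30 and the disulfide isomerase pdia3 at 1.14 ± 0.80. pdia3 was at 398.5 ± 565.4 CPM in R860Q tumours and 180.6 ± 86.6 CPM in EGFP tumours (SD), and the groups overlapped. No gene of these lists passed edgeR's test either.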

How the data were processed

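Bowtie, HTSeq and the danRer10 (GRCz10) build are named, without versions, per the submitters' processing notes. The deposited values are raw read counts per gene symbol, 1 table per tumour, from ribosome-depleted, randomly primed total RNA per the labels' protocols. Whether counting used strand is not stated in any source here. No 2 libraries agreed within sampling noise (lowest chi-square per degree of freedom 47.2).

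The members, gene lists, ratios and rule for named genes were chosen with earlier results of these data known. The rule named all members, up to 3 genes of smallest p in each other chaperone list, and the 5 genes most like hsp70l and hspb1. Outside the rule, ahsa1b was named as the other copy of ahsa1a. Counts were filtered with filterByExpr (minimum count 10, minimum total 15), scaled by TMM and tested with edgeR 4.0.16 (R 4.3.3, robust quasi-likelihood, group as the only term, Benjamini-Hochberg over all genes). The SE of an edgeR log2 fold change is its absolute value divided by the square root of the F statistic of that test. It thus restates the test and is approximate, above all for rows with few reads. Log2 CPM used a prior count of 2. DESeq2 1.42.0, limma 3.58.1 (voom), other scalings, filters and left-out tumours were alternatives. The skeletal muscle markers held no member. A count of 0 allows 3 counts, between 0.164 and 0.734 CPM, and no member was at 0. Symbols of neighbouring genes come from RefSeq's GRCz12tu table.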

Additional observations from a re-analysis of the deposited data

Results flagged for a closer look

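dnajb1a in EGFP R164 was at 104.5 CPM, while the other EGFP tumours were between 20.8 and 24.4 CPM. The gap took 0.902 of the range of the group on the log2 scale, where 0.83 is the 95% limit for 4 samples. It was the single value so marked among 32 sets of values examined (10 members and 6 ratios in 2 groups), and about 1 in 20 would be marked by chance. EGFP R164 also stood apart on the first principal component (-57.2). Without that tumour the log2 fold change of dnajb1a was -0.092 ± 0.26 (SE), against -1.02 ± 0.48 with it, and the difference in the log2 ratio of dnajb1a over dnajb1b was -0.025, against -0.66 with it.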

How the results depend on the processing

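No member with an adjusted p passed under any alternative, and dnajb1a had none by DESeq2, which judged the other 9. Genes called over the whole table were 0 by edgeR, 68 by DESeq2, 1 without EGFP R162 and R164 together, 1 in the tumours with a muscle score below 0, and 0 to 1 with a single tumour left out. The cause was not tested. Log2 fold changes turned sign for hsp90aa1.1 with the muscle covariate (-0.058) and in the muscle-poor tumours (-0.28), for hsp90aa1.2 without EGFP R162 and R164 (-0.29) and in the muscle-poor tumours (-0.23), and for dnajb1b by voom (0.10) and with the muscle covariate (0.048). With a single tumour left out, bag3 was between -0.14 and 0.30 and dnajb1b between -0.26 and 0.29.

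Differences of log2 ratios, none of which passed, turned sign as follows. Without EGFP R162 and R164 they were -0.24 for hsp70l over hspa8, -0.995 for hsp90aa1.2 over hsp90ab1 and 0.31 for dnajb1a over dnajb1b. In the muscle-poor tumours they were -0.093 for hsp70l over hspa8, -0.64 for hsp90aa1.1 over hsp90ab1, -0.45 for hsp90aa1.2 over hsp90ab1 and 0.97 for hspb1 over hspb8, where 2 against 3 tumours cannot pass. With a single tumour left out they ran from -0.13 to 1.15 for hsp90aa1.1 over hsp90ab1, from -0.0091 to 1.09 for hsp90aa1.2 over hsp90ab1 and from -0.45 to 0.53 for hspb1 over hspb8.

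Pearson's r with hsp70l after subtracting group means was -0.71 for hspa8, -0.68 for hsp90ab1, 0.66 for hsp90aa1.2, -0.055 for hsp90aa1.1 and -0.081 for hspb8. The centred r was not computed with tumours left out. Without subtraction of group means and with a single tumour left out, r was 0.67 to 0.86 for dnajb1b and 0.58 to 0.86 for hsp90aa1.2. It was then 0.10 to 0.90 for hspb1, -0.046 to 0.27 for hsp90aa1.1, -0.39 to 0.0060 for hsp90ab1 and -0.039 to 0.46 for hspb8. No paired analysis was possible because the R860Q and EGFP tumours share no replicate number.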

Other observations

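Immediate early genes, which many stimuli switch on within minutes, stresses among them, were examined as well. Of 22 tested, 21 were lower in R860Q tumours, where 47.2% of all genes were higher. Their median was -0.49 on the log2 scale, beside -0.026 over all genes, and 0 passed edgeR's test. Whether they report stress in these tumours was not tested. The lowest p-values, named after their values were seen, belonged to the transcription factor egr3 (-2.85 ± 0.72 SE, edgeR adjusted p = 0.636), ctgfa (-2.60 ± 0.81, adjusted p = 0.680) and klf2b (-1.20 ± 0.41, adjusted p = 0.711).

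Of the markers of other cells, 0 passed edgeR's test in any list, and the lists were not tested against all genes, of which 47.2% were higher in R860Q tumours. Of the tested markers, 17 of 20 of macrophages (median log2 fold change -0.77), 6 of 7 of T and NK lymphocytes (-1.66), 14 of 17 of fibroblasts (-0.81), 12 of 17 of keratinocytes (-0.24) and 10 of 14 of melanocytes (-0.13) were lower in R860Q tumours, and 7 of 12 of erythrocytes (0.20) were higher. Macrophage markers summed to 727.5 to 2020 CPM in R860Q tumours and to 904.9 to 3547 CPM in EGFP tumours, and fibroblast markers to 347.6 to 797.7 CPM and 396.4 to 1564 CPM. Their part in the chaperone values was not tested.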
